A study of Mus musculus with 4 samples.

Results

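The genes described are the 44 mouse protein-coding genes whose symbols follow the collagen pattern (Col, a number, a and a number), of 21887 protein-coding genes on chromosomes 1 to 19, X and Y. Chromatin accessibility around them was read from 4 lists of ATAC-seq peaks. Every peak that overlapped a collagen gene or the 20 kb on either side of it was kept, and overlapping peaks (1 bp or more) of the libraries were joined to a region. This gave 392 regions of 90239 in all, and each of the 44 genes had at least 1.

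ATAC-seq marks open chromatin by the places where a transposase can insert adapters. All 4 libraries came from an iMGT-Myh6-eGFP line of mouse embryonic fibroblasts (MEFs), which carries doxycycline-inducible Mef2c, Gata4 and Tbx5 and an eGFP reporter of the cardiac gene Myh6. The cells were collected on day 1 after induction of the 3 factors with 1 µg/mL doxycycline, so that both groups carried the induced factors. Of the groups, 1 received a control siRNA (siControl, 2 libraries) and the other an siRNA against Chst7, a chondroitin sulfotransferase gene (siChst7, 2 libraries). The siRNA targets the Chst7 mRNA, and peak lists cannot show whether the knockdown worked. The replicates are called biological in the labels, which do not say that they were separate cultures, so the spread between them may be partly technical.

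Collagens are extracellular matrix proteins in which 3 chains wind into a triple helix. Fibrillar collagens form the cross-banded fibrils of skin, bone, tendon and the cardiac interstitium, and fibroblasts are their main source. Network collagens build sheets such as the type IV scaffold of basement membranes, beaded collagens form the type VI microfibrils around cells, and FACITs are collagens that sit on the surface of fibrils. Multiplexins lie in basement membrane zones, transmembrane collagens are anchored in the cell membrane, and type VII collagen forms the anchoring fibrils of the skin. By class the genes were 11 fibrillar, 9 network, 6 beaded, 9 FACIT, 2 multiplexin and 4 transmembrane genes, Col7a1 alone, and the 2 genes Col26a1 and Col28a1, which were kept apart.

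The lists held 66165 to 75696 peaks per library, and 297 to 334 of each lay in collagen windows. The second siChst7 library had the shortest list. The lists carry no read totals, so the depth behind a call is unknown. Fold enrichment at the summit (column 7) and −log10 q (column 9) are the authors' own values for each peak, and they are used here only to describe and rank peaks within a list. Peaks within 1 kb of the gene start were called in all libraries at 6 of 8 fibroblast markers, 2 of 6 cardiomyocyte markers (Myh6 and Tnnt2), 3 of 4 smooth muscle markers, 2 of 5 cartilage, 0 of 5 endothelial, 1 of 4 immune and 1 of 5 epithelial markers, beside 54.2% of all protein-coding genes. For genes with no strand in the gene table, a peak at either gene end was counted. Among the markers with a peak these were Thy1, Pdgfrb, Myh11, Tagln, Comp, Sox9 and Spi1. Values of the 4 libraries are given below in the order siControl replicate 1, siControl replicate 2, siChst7 replicate 1, siChst7 replicate 2.

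Promoter sequences are shown for 7 genes because the peaks at their starts differed most in kind: a start shared by a gene pair, a start with its summit inside the gene, starts of very different strength, and a start with no peak. Each is the RefSeq window on GRCm38.p6 from 250 bases before to 50 bases after the start, 300 bases in all, written 5′ to 3′ on the gene's strand. Capitals mark matches to 8 short motifs, which were searched on both strands. A MEF2 match can contain a TATA box, and the other motifs do not contain each other. For factors that bind in fibroblasts, the AP-1 motif was searched with the letters TGANTCA and the motif of TEAD factors with the letters GGAATG. For general promoter elements, the CCAAT box was searched by that name's own letters, the GC box with the letters GGGCGG and the TATA box with the letters TATAAA. For the 3 induced factors, the search used the letters AGATAA for the motif of GATA factors, the letters AGGTGTG for the motif of T-box factors, and for Mef2c the MEF2 motif.
Col4a1, chr8:11312777-11313076, minus strand: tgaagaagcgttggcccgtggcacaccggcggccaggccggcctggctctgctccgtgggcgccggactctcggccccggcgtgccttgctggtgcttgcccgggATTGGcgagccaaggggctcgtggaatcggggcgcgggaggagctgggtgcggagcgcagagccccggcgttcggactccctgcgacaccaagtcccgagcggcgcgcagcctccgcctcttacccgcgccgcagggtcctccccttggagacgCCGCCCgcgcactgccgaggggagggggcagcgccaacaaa
Col4a2, chr8:11312555-11312854, plus strand: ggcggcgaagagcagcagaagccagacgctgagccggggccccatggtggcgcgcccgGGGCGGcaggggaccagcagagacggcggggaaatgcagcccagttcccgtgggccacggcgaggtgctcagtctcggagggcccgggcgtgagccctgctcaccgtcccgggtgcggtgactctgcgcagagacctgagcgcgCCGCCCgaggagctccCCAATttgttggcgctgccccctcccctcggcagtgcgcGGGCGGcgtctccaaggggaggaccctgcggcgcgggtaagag
Col1a2, chr6:4505368-4505667, plus strand: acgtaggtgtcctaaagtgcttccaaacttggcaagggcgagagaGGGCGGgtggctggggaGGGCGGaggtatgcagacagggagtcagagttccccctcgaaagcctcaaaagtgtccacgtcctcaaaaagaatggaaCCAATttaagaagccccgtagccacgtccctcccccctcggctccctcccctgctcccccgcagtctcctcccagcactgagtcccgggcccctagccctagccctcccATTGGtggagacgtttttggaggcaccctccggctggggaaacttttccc
Col3a1, chr1:45311288-45311587, plus strand: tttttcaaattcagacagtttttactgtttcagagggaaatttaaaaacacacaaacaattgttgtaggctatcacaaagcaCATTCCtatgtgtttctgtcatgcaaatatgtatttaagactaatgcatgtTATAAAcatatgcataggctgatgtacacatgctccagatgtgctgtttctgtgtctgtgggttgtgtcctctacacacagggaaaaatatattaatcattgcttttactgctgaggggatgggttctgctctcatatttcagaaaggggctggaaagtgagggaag
Col6a1, chr10:76725995-76726294, minus strand: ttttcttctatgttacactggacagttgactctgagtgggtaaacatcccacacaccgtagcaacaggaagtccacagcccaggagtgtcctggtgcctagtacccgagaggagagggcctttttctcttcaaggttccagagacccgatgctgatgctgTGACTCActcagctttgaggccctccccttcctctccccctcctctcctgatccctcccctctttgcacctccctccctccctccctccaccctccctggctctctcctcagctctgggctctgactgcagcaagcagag
Col6a2, chr10:76623355-76623654, minus strand: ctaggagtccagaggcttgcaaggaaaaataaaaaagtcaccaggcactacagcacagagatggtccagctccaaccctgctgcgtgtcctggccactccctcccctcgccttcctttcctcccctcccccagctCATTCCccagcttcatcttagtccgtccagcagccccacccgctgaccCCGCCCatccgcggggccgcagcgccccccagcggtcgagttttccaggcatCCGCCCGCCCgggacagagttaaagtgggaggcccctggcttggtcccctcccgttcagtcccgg
Col10a1, chr10:34389731-34390030, plus strand: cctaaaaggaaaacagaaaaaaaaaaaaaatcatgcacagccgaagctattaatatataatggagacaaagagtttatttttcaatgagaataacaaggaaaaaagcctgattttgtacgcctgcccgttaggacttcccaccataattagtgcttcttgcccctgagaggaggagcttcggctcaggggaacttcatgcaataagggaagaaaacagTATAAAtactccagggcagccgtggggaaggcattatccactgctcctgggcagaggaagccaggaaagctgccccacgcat

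The windows of Col4a1, Col4a2, Col1a2 and Col6a2 held GC boxes and those of Col3a1, Col6a1 and Col10a1 none. The Col3a1 window had 37.7% G and C and no CpG, whereas the Col4a1 window had 74.0% and 37 CpGs. Col10a1 had its TATA box 32 bases before the start, and Col6a1 held the only AP-1 match among the collagen windows. RefSeq windows were matched for 35 of the 44 genes (38 windows, since some genes have more than 1). A GC box was present in 62.9% of these genes and in 60.5% of the windows, against 35.7% of the 32851 promoter windows of all genes. AP-1 was found in 2.63% of collagen windows (7.81% of all), the CCAAT box in 34.2% (37.4%), TEAD and the TATA box in 13.2% each (14.7% and 13.6%), GATA in 5.26% (11.2%), and the T-box and MEF2 motifs in 2.63% each (5.84% and 3.19%). Nothing follows from these matches about the binding of a factor. The median number of CpGs was 11.5 in collagen windows and 7 in all windows. In the 11 collagen windows whose start base lay inside a peak of every library the median was 16 CpGs, with a range of 3 to 37, and in the 24 with no base under a peak in any library it was 8.50, with a range of 0 to 32.

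A peak at the start was found at a smaller share of collagen genes than of all genes, a difference that was not tested. A peak within 1 kb of the start was called in all 4 libraries at 17 of the 44 collagen genes (38.6%), beside 54.2% of all protein-coding genes. For the 35 collagen genes with a given strand the count was 14 (40.0%), beside 54.4%. The other 9 (Col1a1, Col2a1, Col5a2, Col4a3, Col9a3, Col12a1, Col14a1, Col22a1 and Col26a1) have no strand in the gene table, so a peak at either gene end was accepted, and 3 of them had one (33.3%, beside 53.4% of such genes). Within 2.5 kb the count of collagen genes rose to 26, because peaks of several genes lie just outside the narrower window. The share of all protein-coding genes was not computed at this width, so whether the difference from all genes holds there was not tested. The genes with a start peak were Col1a1, Col1a2, Col5a1, Col5a2 and Col27a1 among the fibrillar genes, Col4a1, Col4a2, Col4a5, Col8a1 and Col10a1 among the network genes, Col6a1 and Col6a2 among the beaded genes, Col14a1 and Col16a1 among the FACITs, and Col18a1, Col23a1 and Col7a1. The plot of fold enrichment at these starts gives all 4 values for each gene.

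**Figure D1:**
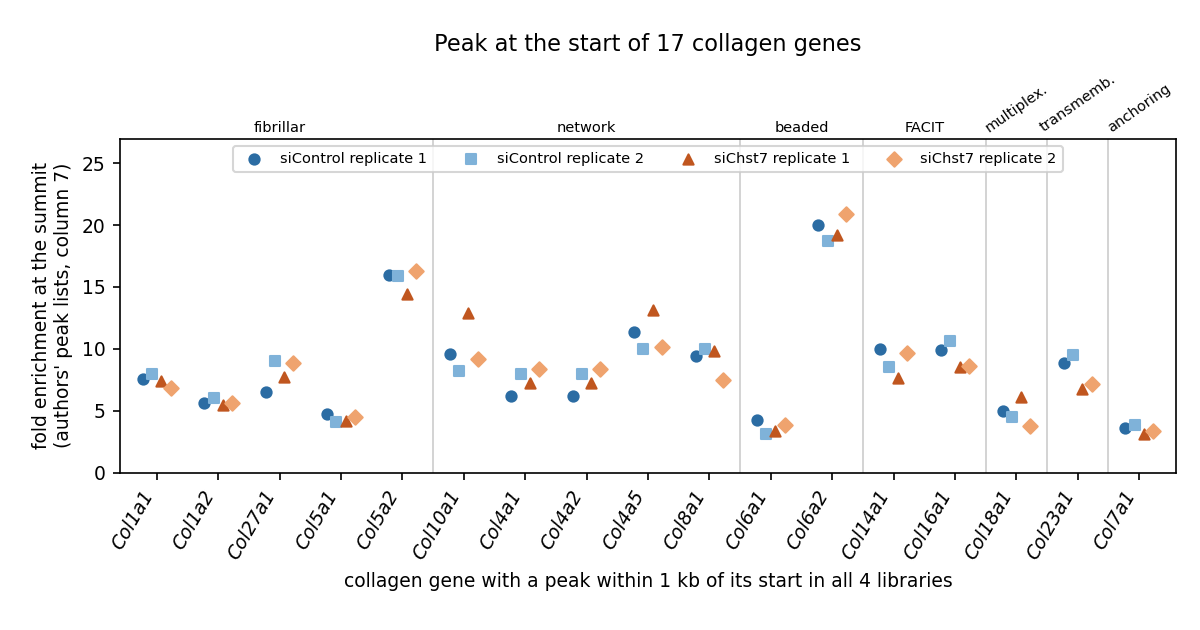
Fold enrichment (y axis, authors' column 7, no unit) of the peak at the start of the 17 collagen genes with such a peak in all libraries (x axis, by class), 1 point per library. Col6a2 lies highest, at 18.7 to 20.9, Col7a1 and Col6a1 lie lowest, and the siControl and siChst7 points overlap at most genes.

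Col1a1 and Col1a2 encode the 2 chains of type I collagen, the main protein of fibrous tissue. At Col1a1 the region chr11:94936109-94937478 covered the lower-coordinate gene end, with folds of 7.53, 7.95, 7.42 and 6.82 and −log10 q of 140, 142, 137 and 90.6. At Col1a2 the region chr6:4505251-4506600 covered the start, with folds of 5.62, 6.06, 5.49 and 5.66. The folds of the 4 libraries lay close together at both genes, and the siControl and siChst7 values overlapped at Col1a2. At Col1a1 both siChst7 libraries were below both siControl libraries in fold and in −log10 q. The −log10 q of siChst7 replicate 2, at 90.6, stood apart from the rest. The summit did not lie on the start: it was 754 bases inside Col1a2, and 982 bases inside from the named end of Col1a1. The whole 300-base window of Col1a2 printed above lay inside the peak in every library.

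Col1a1 had the highest density of shared regions among the collagens, where a shared region is one called in all 4 libraries: 7 in its 56.8 kb window, or 12.3 per 100 kb. Only 1 of these lay in the 16.8 kb gene itself, and the others lay in its flanks. Col1a2 also had 7, or 9.22 per 100 kb. The region farthest from Col1a1, chr11:94916197-94916861, lay 19.4 kb outside the gene and had −log10 q of 128, 181, 170 and 157, which placed it among the 10 collagen regions with the highest median −log10 q. Its folds of 8.36, 10.2, 9.61 and 11.2 were ordinary, at percentiles of 40.6 to 68.1 among all shared regions of the genome. The same contrast held over the gene as a whole: the median percentile of the Col1a1 regions was 32.9 by fold and 75.9 by −log10 q, whereas that of Col1a2 was 66.0 by fold and 47.2 by −log10 q. Inside Col1a2 the highest folds lay 25.1 kb from the start, at chr6:4530749-4531813, with 13.1, 16, 13.1 and 13.0.

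Col3a1 encodes type III collagen, which forms fibrils together with type I in extensible tissue. It had no peak within 1 kb of its start in any library, and no base of its printed promoter window lay under a peak. The nearest region called in all libraries was chr1:45313729-45314228, inside the gene and 2.19 kb from the start, with folds of 8.68, 11, 7.02 and 9.72. This was the only shared region of the Col3a1 window, of 7 regions in all, and its siControl and siChst7 values overlapped. A second region 2.02 kb upstream of the start (chr1:45309147-45309514) was called in 3 libraries, with folds of 5.94, 4.16 and 4.65, and was not listed for siControl replicate 2.

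Type V collagen sets the diameter of type I fibrils and is built from the products of Col5a1, Col5a2 and Col5a3. Col5a2, which lies next to Col3a1, had a strong peak at its higher-coordinate end (chr1:45502264-45503413), with folds of 16, 15.9, 14.5 and 16.3. The 2 regions between Col3a1 and Col5a2 were each called in 3 libraries. Col5a1 had 13 shared regions, as many as Col4a1 and fewer only than Col4a2. Its start region chr2:27885699-27888348 was broad and low, with folds of 4.77, 4.10, 4.17 and 4.50 and a summit 870 bases inside the gene. The regions right after it, 2.08 and 5.67 kb from the start, had folds of 3.07 to 4.15, and the region 49.6 kb inside the gene reached 10.7, 13.1, 9.96 and 11.6. That region had the highest folds of Col5a1 in the second library of each group, and in the first libraries other regions were higher, at 11.1 and 10.6. Col5a3 had no start peak, but a region 1.84 kb inside the gene reached 9.24, 8.46, 8.35 and 9.31. Its upstream region chr9:20830659-20831431, 15.5 kb outside the gene, had folds of 19.8, 21.0, 18.1 and 19.8 and the highest median fold of all shared collagen regions.

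The remaining fibrillar genes include those of cartilage fibrils. Col27a1, whose product is a cartilage fibril collagen, had a start peak at 6.49, 9, 7.74 and 8.82-fold and 8 shared regions. Fewer regions were found at the others: Col2a1, the gene of the main cartilage fibril, had 5 regions, and the only shared one lay 11.1 kb outside it at the start of Tmem106c. Inside Col2a1 the region 2.56 kb from a gene end (chr15:98001122-98002163) was called in 3 libraries, at 4.61, 4.60 and 4.63-fold, and not in siChst7 replicate 2. Col11a1 had 1 shared region, 1.19 kb inside the gene, at 7.98, 7.75, 5.64 and 7.19-fold. Col11a2 had 3, of which 2 lay at the starts of Ring1 and of Rxrb and Slc39a7. Col24a1 had 3 shared regions in a 260 kb gene, the nearest of them 70.5 kb from its start.

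Genes of the type IV collagens, the network of basement membranes, lie in head-to-head pairs. Col4a1 and Col4a2 start 21 bases apart on opposite strands, and their printed windows overlap. A single region, chr8:11311800-11313499, covered both starts with folds of 6.19, 7.94, 7.22 and 8.39 and −log10 q of 29.4, 49.6, 45.1 and 43.1. Its summit lay 27 bases from the Col4a1 start and 6 bases from the Col4a2 start. The start peak was not the strongest of the locus: the region 9.83 kb outside Col4a1 and inside Col4a2 (chr8:11322716-11323584) had −log10 q of 200, 172, 193 and 136 and folds of 12.4, 11.2, 11.3 and 10.9. The highest folds of the pair were at chr8:11215149-11215859, 97.0 kb from the start inside Col4a1, with 16.5, 15.9, 17.5 and 14.0.

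Col4a2 had 19 shared regions, the largest number of any collagen gene, and Col4a1 had 13. Their densities were 10.8 and 8.42 per 100 kb, and the map of the pair shows regions along both gene bodies. Within the 2 genes the folds ranged from 2.73 to 17.5 at Col4a1 and from 3.09 to 14.8 at Col4a2 over the shared regions.

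**Figure D2:**
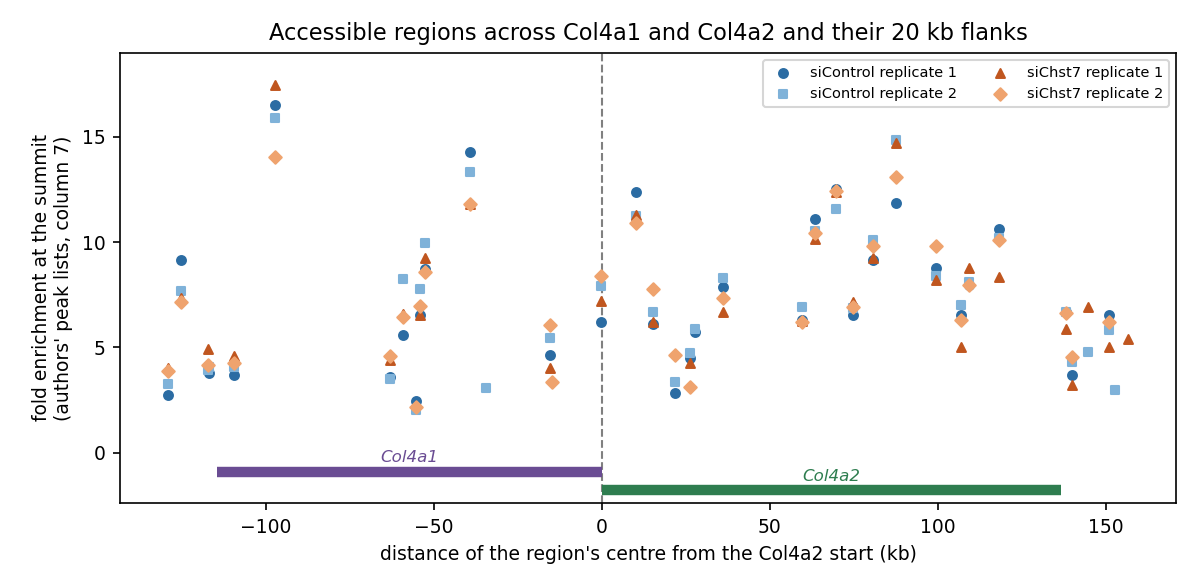
Fold enrichment (y axis, authors' column 7) of each region in the windows of Col4a1 and Col4a2 against the distance of its centre from the Col4a2 start (x axis, kb), 1 point per library that called it, with the gene bodies as bars. The region over both starts lies at 6.19 to 8.39, below several regions inside either gene.

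The other pairs differed from this. Col4a5 and Col4a6 on chromosome X start 1343 bases apart, and the shared region chrX:141475146-141476162 covered the Col4a5 start, 1.05 kb from Col4a6, with folds of 11.4, 9.97, 13.2 and 10.1. Col4a5 had only 1 further shared region in its 214 kb body, at 18.5, 16.1, 14.5 and 14.1-fold. Col4a6 had 9 in its 309 kb body, and 11 with its flanks, which take in the Col4a5 start region. Among the 9 was one of 19.1, 18.3, 17.5 and 18.3-fold 110 kb from the Col4a6 start. Col4a3 and Col4a4, whose gene bodies share 114 bases at their head-to-head ends, had no start peak in any library. The nearest shared region to the Col4a4 start was 54.6 kb away, and the shared region 2.70 kb outside the far end of Col4a3 lay at the start of Mff.

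Type VIII and type X collagens form hexagonal sheets. Col8a1 had a peak 0.462 kb upstream of its start at 9.41, 10.0, 9.86 and 7.51-fold, and in siControl replicate 1 a weak peak of 2.99-fold reached over the start itself. Col8a2 had no shared region nearer than 8.36 kb to its start. Col10a1, known for its expression in hypertrophic cartilage, had a region over its start (chr10:34389259-34390005) with folds of 9.60, 8.18, 12.9 and 9.14. The Col10a1 gene lies inside Nt5dc1 in the gene table, so the region belongs to the windows of both. The first siChst7 library was the highest, and the second lay between the siControl libraries.

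Type VI collagen is assembled from the chains of Col6a1 and Col6a2 and 1 further chain, such as that of Col6a3. Col6a2 had the strongest start peak of the family (chr10:76622868-76623656), with folds of 20.0, 18.7, 19.2 and 20.9, at the 96.2 to 99.4 percentile of shared regions. Its summit lay 16 bases from a RefSeq start. The Col6a1 start region, on the same chromosome and strand, was at 4.23, 3.14, 3.39 and 3.85-fold. The folds of the groups overlapped at both. Around Col6a1 the highest folds, 12.6, 12.2, 13.0 and 12.5, lay 14.9 kb downstream of the gene. The region nearest to the Col6a3 start, 3.26 kb inside the gene, had folds of 3.82, 5.50, 4.58 and 4.66, and the highest folds of its window, 15.4, 12.8, 14.8 and 13.8, were found 12 kb downstream of the gene.

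Col6a4, Col6a5 and Col6a6 lie side by side on chromosome 9 and encode chains that can take the place of the Col6a3 chain. None had a start peak. Col6a6 nevertheless held 10 shared regions, and the one at chr9:105764472-105765084, 63.0 kb inside the gene, had folds of 19, 19.4, 19 and 19.6 and −log10 q of 262, 273, 281 and 233. By median −log10 q it was second among the 248 shared collagen regions, after chr9:108991355-108992310 (427, 392, 394 and 307), which lies 6.48 kb downstream of Col7a1 at the start of another gene, Pfkfb4. Col7a1 itself had a start region of 3.57, 3.85, 3.15 and 3.32-fold, 0.293 kb upstream. Its 8 shared regions in a 71.3 kb window gave 11.2 per 100 kb, but 2 of the 8 lay at the starts of Uqcrc1 and Pfkfb4.

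Among the FACITs, Col12a1 and Col14a1 encode collagens XII and XIV, which bind type I fibrils in tendon and skin. Col12a1 had 11 shared regions. The one with the highest −log10 q, chr9:79718438-79719193, lay 1.95 kb from the higher-coordinate gene end with folds of 13.6, 13.1, 13.8 and 14.9 and −log10 q of 175, 146, 203 and 171, and no peak lay within 1 kb of either end. Col14a1 had a region 0.297 kb outside its lower-coordinate end at 10.0, 8.56, 7.62 and 9.67-fold and 8 shared regions. Col16a1 had a summit 19 bases from its start, with folds of 9.92, 10.7, 8.53 and 8.59. Col9a1, a cartilage FACIT, was the only one of the 44 genes with no region called in all libraries: its 2 regions were called in 3 each. Col19a1 had 1 shared region in a 330 kb gene.

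The multiplexins Col15a1 and Col18a1 had 6 and 10 shared regions. Col18a1, the source of the fragment endostatin, had a peak at its farthest upstream RefSeq start with folds of 4.94, 4.45, 6.15 and 3.76, and none over the start used by its other RefSeq window. Its highest folds inside the gene were 16.6, 19.1, 17.3 and 16.6 at chr10:77130457-77131075. The Col18a1 window also took in chr10:77032615-77034290, 17.9 kb downstream of the gene at the start of Slc19a1. That region had −log10 q of 213, 251, 185 and 158, among the 10 highest medians of the collagen regions. Col15a1 had no shared region nearer than 26.7 kb to its start, but one at 15.2, 16.5, 13.3 and 15.6-fold 102 kb inside the gene.

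Transmembrane collagens sit in the membranes of epithelial, muscle and nerve cells, and 1 of the 4 had a start peak. Col13a1, which has a role at the neuromuscular junction, had 8 shared regions, and the nearest to its start, 1.24 kb upstream, reached folds of 17.6, 18.2, 14.1 and 16. Col25a1 had 5 shared regions in a 420 kb gene, the nearest of them 210 kb from its start, and the lowest median fold percentile of any collagen gene, 18.1. Col17a1, a gene of epithelial hemidesmosomes, had 3 shared regions and none within 7.68 kb of its start. The genes not described above by locus were the FACITs Col9a2, Col9a3, Col20a1 and Col22a1 and the pair Col26a1 and Col28a1, none of which had a start peak in all libraries. They held 2 to 6 shared regions each, at densities of 1.27 per 100 kb (Col28a1) to 9.36 (Col9a3). Of the 6 shared regions of Col9a3, 3 lay at the starts of Mrgbp and Ogfr.

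By class, shared regions numbered 3.60 per 100 kb of window in fibrillar genes, 4.40 in network genes, 4.35 in beaded genes and 2.97 in FACIT genes. All collagen windows together had 3.54 and all protein-coding windows 3.16. Genes of the same class differed widely. Fibrillar genes ran from 0.434 (Col11a1, 1 shared region) to 12.3 (Col1a1) and network genes from 0.788 (Col4a5, 2 shared regions) to 10.8 (Col4a2). Beaded genes ran from 2.05 (Col6a5) to 6.99 (Col6a1) and FACIT genes from 0 (Col9a1) to 9.36 (Col9a3). A class value pools its genes and so varies less than single genes do, and the 2 spreads cannot be compared. The median collagen gene had 4.18 per 100 kb and the median protein-coding gene 4.05. The density was higher in the 20 kb flanks (4.53 per 100 kb) than inside collagen genes (3.25). The flanks take in starts of neighbouring genes, and 16 of the 248 shared collagen regions lay within 1 kb of another gene's start. The flank density without such regions was not computed, so their part in this difference was not tested. Of 194 shared regions next to a collagen gene with a given start, 13 lay within 1 kb of it, 26 at 1 to 10 kb, 68 at 10 to 50 kb and 87 farther than 50 kb. In network genes 65.5% of shared regions lay beyond 50 kb, and in FACIT genes 13.3% of 15. These shares cannot be compared as class traits, because gene length limits how far from the start a region can lie. Of the FACIT genes counted, Col9a2, Col20a1 and Col16a1 span 15.8, 34.2 and 51.5 kb and Col19a1 spans 330 kb. The long genes Col12a1, Col14a1 and Col22a1 have no given start and were left out.

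**Figure D3:**
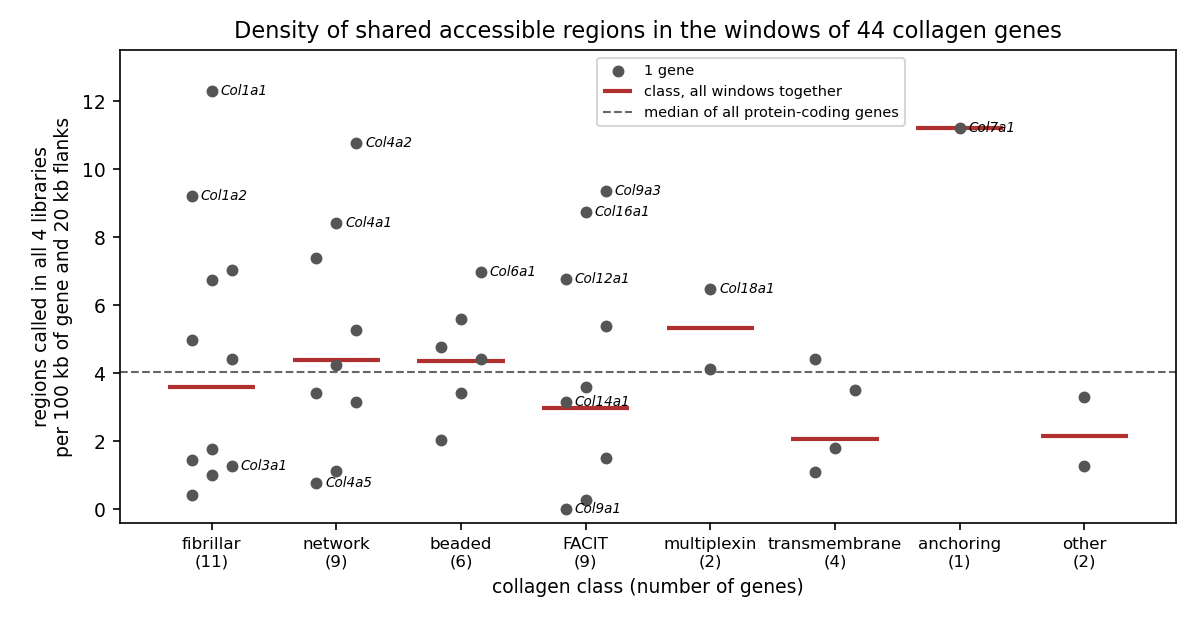
Shared regions per 100 kb of gene and flanks (y axis) for each of the 44 collagen genes (points) and for each class as a whole (bars), with the median of all protein-coding genes (4.05) as a dashed line. Genes of each of the 4 larger classes lie on both sides of the dashed line.

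Fibrillar peaks ranked lower by fold than FACIT peaks in each library. The median percentile of fibrillar peaks within a library's list was 39.7 to 44 by fold over the 4 libraries, that of network peaks 42.2 to 48.9, that of beaded peaks 46.5 to 51.7 and that of FACIT peaks 52.9 to 56.4. The fibrillar and FACIT ranges did not overlap between libraries, although the libraries share the same genes and are not independent observations of the classes. By −log10 q the order was different: the ranges were 47.0 to 48.9 for fibrillar, 43.6 to 50.9 for network, 55.7 to 61.6 for beaded and 49.2 to 60.3 for FACIT peaks. This order depended on the peaks taken: over regions called in all libraries, ranked among the shared regions of the genome, beaded regions were at 50.5 to 52.8 and FACIT regions at 51.2 to 59.5 by −log10 q, and FACIT was higher in 3 of the 4 libraries. By fold these regions were at 34.7 to 45.3 in fibrillar, 39.4 to 44.6 in network and 41.5 to 50.9 in beaded genes. Among these 4 classes FACIT regions, at 55.5 to 58.7 by fold, stayed highest, and the ranges of the others overlapped. The regions of the 2 multiplexin genes ranked higher than FACIT regions in each library, at 56.4 to 61.9. Over all peaks of a list, multiplexin peaks were at 59.3 to 67.3 by fold. The ranges of transmembrane peaks (52.6 to 54.6) and Col7a1 peaks (51.4 to 66.9) overlapped that of FACIT peaks. Over the 248 shared regions the Spearman correlation of median fold and median −log10 q was 0.763, given as a description since all regions come from the same libraries. Genes within a class again differed widely in the median fold percentile of their shared regions. It ran from 30.3 (Col11a1, 1 region) to 78.4 (Col5a2, 3 regions) in fibrillar genes. In network genes it ran from 28.5 (Col4a1) to 76.9 (Col4a5, 2 regions), and in beaded genes from 26.2 (Col6a3) to 82.5 (Col6a5, 3 regions).

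**Figure D4:**
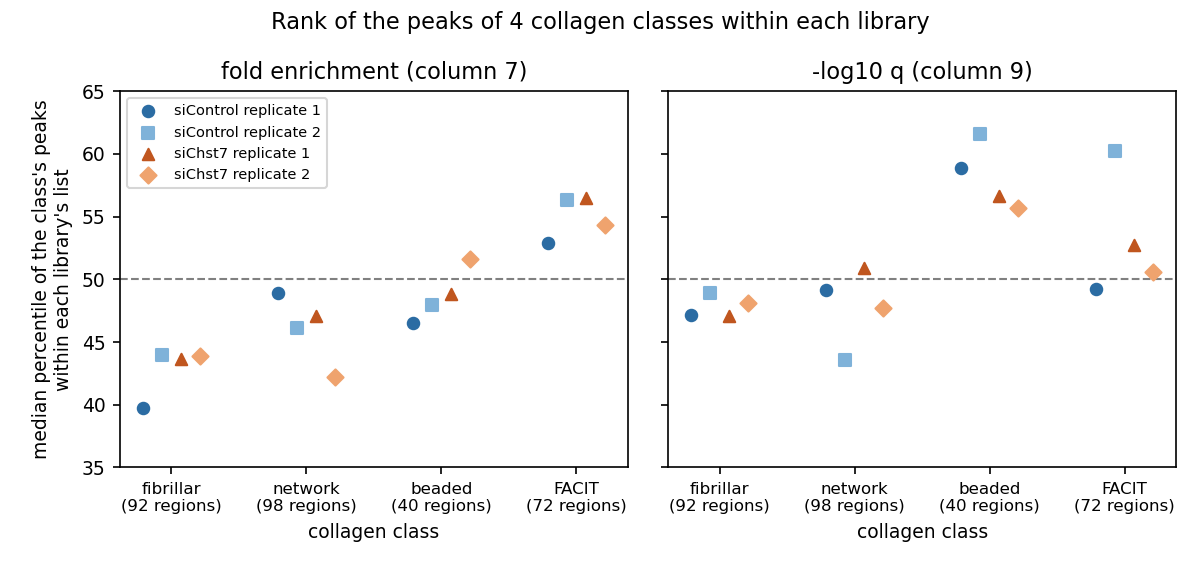
Median percentile within each library's list (y axis) of the peaks of 4 collagen classes (x axis) by fold enrichment (left) and −log10 q (right), 1 point per library. By fold FACIT peaks (52.9 to 56.4) lie above those of the other classes shown, with fibrillar peaks at 39.7 to 44. By −log10 q beaded peaks, at 55.7 to 61.6, and FACIT peaks, at 49.2 to 60.3, overlap.

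The siControl and siChst7 libraries were compared to ask whether the Chst7 siRNA went with a change in collagen accessibility. The share of a library's peaks in collagen windows was 0.443% and 0.442% with siControl and 0.429% and 0.449% with siChst7. The means were 0.442% ± 0.000847 (SD, n = 2) and 0.439% ± 0.0142 (SD, n = 2), a difference of -0.00306 percentage points. The siControl values lay between the siChst7 values, and a two-sided exact permutation test over the 4 libraries gave p = 1, where the smallest p this design allows is 0.333. Of the 392 collagen regions 248 (63.3%) were called in all 4 libraries, beside 62.0% of all regions, and 68 (17.3%) in 1 library, beside 17.5%.

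Regions called in both siControl libraries and in neither siChst7 library numbered 10 (2.55%), beside 2.84% of all regions. Regions called in both siChst7 libraries and in neither siControl library numbered 2 (0.510%), beside 1.24%. Both shares were near or under the background. The 10 lay 2 in Col5a1 and 1 each in the windows of Col4a1, Col4a2, Col4a4, Col4a6, Col6a4, Col11a2, Col24a1 and Col26a1, and the 2 in Col27a1 and Col6a5. Leaving out any 1 of the 4 libraries gave 20 to 33 regions called only with siControl (5.24 to 8.75%, beside 4.56 to 9.03% of all regions) and 8 to 20 called only with siChst7 (2.12 to 5.24%, beside 3.05 to 6.53%). Without siChst7 replicate 2, the library with the shortest list, there were 20 of each (5.24%), beside 4.56% of all regions with siControl and 6.53% with siChst7. The highest folds among the 10 were 11 and 7.81 at chr1:82554416-82554971 inside Col4a4, 9.60 and 7.46 at chr9:105987982-105988404 downstream of Col6a4 and 7.51 and 7.17 at chr2:27969242-27969604 inside Col5a1. The Col27a1 region, chr4:63296825-63297279, had 6.94 and 6.45 with siChst7, and the Col6a5 region, chr9:105880734-105880988, 3.96 and 4.43. The Col11a2 region lay inside Rxrb, upstream of the collagen gene.

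For the 248 shared regions the fold of each library was turned into a percentile among the 55924 regions shared over the genome. Both siChst7 libraries ranked above both siControl libraries at 54 collagen regions (21.8%), beside 19.5% of all shared regions, and below at 40 (16.1%), beside 18.4%. These shares lie close to the background. With a mean difference of at least 10 percentile points there were 25 higher (10.1%, beside 7.84%) and 15 lower (6.05%, beside 7.91%). Ranked by −log10 q instead, 56 were higher (22.6%, beside 20.2%) and 45 lower (18.1%, beside 20.2%). The median difference in fold percentile over the 248 regions was 0.25 points, and over all protein-coding windows 0.03. By class the higher and lower counts were 6 and 7 of 53 in fibrillar genes, 12 and 11 of 64 in network genes, 8 and 5 of 30 in beaded genes and 12 and 5 of 46 in FACIT genes.

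**Figure D5:**
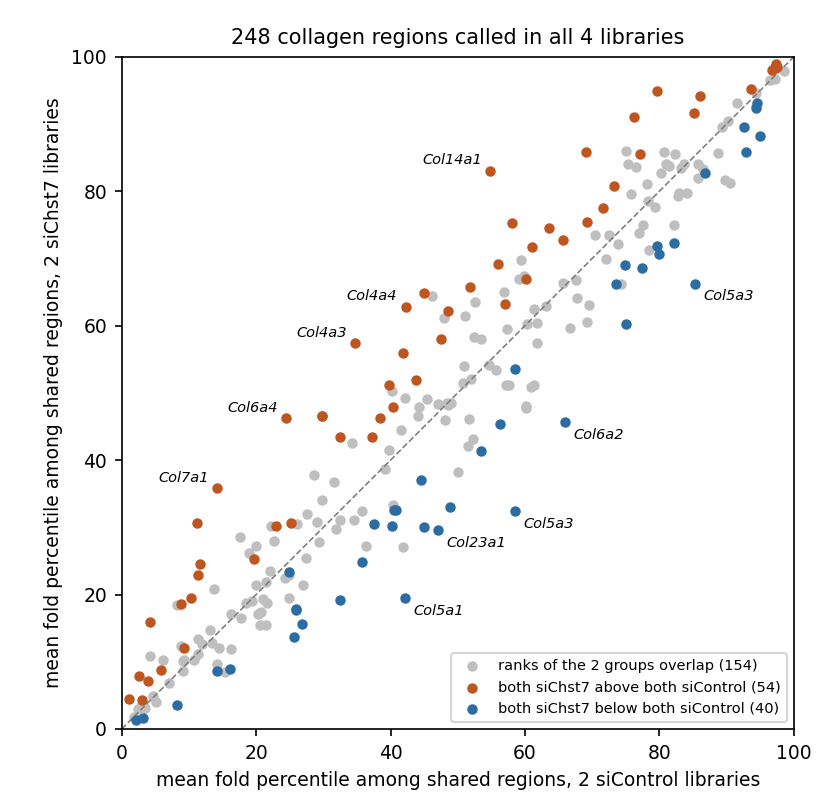
Mean fold percentile of the 248 shared collagen regions in the siControl libraries (x axis) and the siChst7 libraries (y axis), coloured where the ranks of the groups do not overlap. The points follow the diagonal, with 54 coloured above it and 40 below, and the names mark the 5 largest differences in each direction.

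The largest rise in rank was inside Col14a1, 39.3 kb from its lower-coordinate end (chr15:55346964-55347676), where the folds were 10.2, 9.97, 13.8 and 13.7. In percentiles these were 56.4 and 53.3 with siControl and 83.0 and 83.1 with siChst7, a difference of 28.2 points. Col14a1 had 8 shared regions, of which 4 ranked higher in both siChst7 libraries, 1 lower, and 3 with overlapping ranks. The region 14.2 kb inside had folds of 6.74, 7.74, 9.18 and 8.21, and the one 25.9 kb inside had 12.9, 13.4, 16.1 and 15.3. The region outside its lower-coordinate end did not follow them: its folds of 10.0, 8.56, 7.62 and 9.67 overlapped between the groups.

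The next rises were at Col4a3 (chr1:82695840-82696608; 7.72, 7.81, 10.0 and 9.77-fold, 22.6 points), Col6a4 (chr9:106043963-106044543; 7.41, 5.78, 8.97 and 8.34-fold, 21.7 points) and 5.49 kb upstream of Col7a1 inside Uqcrc1 (5.02, 5.81, 7.27 and 7.87-fold, 21.6 points). The fifth lay 18.8 kb downstream of Col4a4 inside Rhbdd1 and differed by 20.6 points. At these regions the siChst7 folds were above both siControl folds. The genes did not move as a whole: beside the region given, 1 of the 6 shared regions of Col4a3, 1 of the 7 of Col6a4 and 1 of the 2 of Col4a4 ranked lower with siChst7. Of the 8 of Col7a1, 2 ranked higher, 1 lower, and 5 overlapped.

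The largest fall was at Col5a3. The region 10.4 kb upstream of it, inside Rdh8 (chr9:20825494-20826077), had folds of 9.90, 11.3, 7.01 and 7.42, a difference of -26.2 points. A region inside Col5a3 (chr9:20804134-20804664) had 14.5, 15.4, 10.8 and 11.3, a difference of -19.1 points. In all, 3 of the 6 shared Col5a3 regions ranked lower with siChst7, 1 ranked higher, and the strongest, 15.5 kb upstream, overlapped between the groups. Inside Col5a1 (chr2:27926872-27927225) the folds were 8.08, 9.13, 6.97 and 4.78, a difference of -22.6 points, and inside Col6a2 (chr10:76602532-76603217) they were 11.8, 11.4, 8.92 and 8.26, a difference of -20.3 points. The start peak of the transmembrane collagen gene Col23a1 had 8.86, 9.51, 6.75 and 7.13, a difference of -17.5 points, and it was the only start peak among the 5 largest falls.

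The start peaks of the main fibroblast collagens overlapped in rank between the groups. At Col1a1, Col1a2, Col5a1, Col5a2, the Col4a1 and Col4a2 pair and Col6a1 no order of the groups was seen in rank. At Col1a1 both siChst7 folds were nevertheless below both siControl folds. Ranks did not overlap at 5 of the start peaks of the 17 genes. Among all shared regions of the genome, 19.5% ranked higher with siChst7 without overlap and 18.4% lower. The Col6a2 start ranked higher with siChst7 by 1.64 points, although its folds overlapped: siControl replicate 1 and siChst7 replicate 1 both stood at the percentile of 98.4. The Col10a1 start ranked higher by 19.9 points, with percentiles of 51.5 and 38.4 with siControl and 78.1 and 51.6 with siChst7. Its groups were barely apart in rank and overlapped in fold, and the first siChst7 library stood apart from the other 3. The Col16a1 start (9.92, 10.7, 8.53 and 8.59-fold) ranked lower by 11 points, the Col23a1 start as given above, and the Col7a1 start by 1.53 points, at folds of 3.15 to 3.85.

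Collagen chains need a set of modifying enzymes, chaperones and crosslinkers. Of 14 genes of prolyl and lysyl hydroxylation and glycosylation 12 had a start peak in all libraries, and of 10 genes of folding and secretion 9, both above the 54.2% of all genes and the 38.6% of the collagens. P4hb, a subunit of prolyl 4-hydroxylase, had folds of 10.4, 10.5, 10.2 and 10.7 at its start, and P4ha1, its catalytic partner, 7.90, 8.45, 7.67 and 8.18. The collagen chaperone Serpinh1 had 5.66, 5.00, 4.74 and 4.96. Of the crosslinking enzymes 4 of 5 had a start peak (Lox at 8.61, 8.42, 8.73 and 8.94-fold, not Loxl2), of 8 propeptide processing genes 5, and of 10 collagen receptors 7, with Itgb1 at 14.5, 15.6, 13.3 and 14.6-fold. The receptor genes Ddr2 and Itga11 and the hydroxylase gene Plod2 had none. Laminins, the other large family of basement membrane genes, had a start peak at 7 of 11 genes and a median of 4.78 shared regions per 100 kb. In these lists too, a peak at either gene end was counted for genes with no given strand. Among the genes with a peak these were Lox, Loxl1, Loxl3, Lama3, Lama4, Lamc1, Lamc3, Colgalt2, P3h2, P3h4, Fkbp10, Bmp1 and Mrc2.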

How the data were processed

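Bulk ATAC-seq was done on 4 libraries (2 siControl, 2 siChst7), with 75 bp paired reads per the labels' protocols. The genome was mm10 and the tools listed were MACS3, Bowtie, HOMER, SAMtools and bedtools, per the submitters' processing notes, which are given here without versions or roles, and each library has a peak list of its own. In these lists the authors deposited a score (column 5, in over 99.8% of rows 10 times the −log10 q, rounded down), the fold enrichment at the summit as a ratio (column 7), the −log10 p and −log10 q (columns 8 and 9) and the summit offset. The lowest deposited −log10 q was 2.00 to 2.02, a q of about 0.01. Depth and read counts are not in the lists, so no count model was used and intervals were not computed.

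Peaks on chromosomes 1 to 19, X and Y were merged across libraries at 1 bp with Python 3.11.15 and pandas 2.3.3, and the merge was checked against bedtools 2.31.1 and on simulated lists. Where a region held several peaks of a library, the one with the highest −log10 q gave its values. Genes came from RefSeq on GRCm38.p6, whose coordinates are those of mm10. The table gives no exons, so a region is placed only inside or outside a gene. Percentiles were computed within a library. Samples were grouped by their titles, p-values measure only the spread between these 4 samples, and the replicate numbers are not stated to mark shared cultures. The genes named are the main fibroblast and cartilage collagens, the Col4 pairs, genes with a region called in 1 group only and the 5 genes with most shared regions. Also named are the genes of the 10 regions with the highest median −log10 q and of the 5 largest rank differences in each direction. Other members are given by range, and the start peaks, Col13a1, Col17a1, Col25a1, Col5a3, Col9a3 and the examples of modifying enzymes were added after their values were seen. The members, classes and lists were chosen with earlier results of these data known. Alternatives covered the flank, the summit window, filters on q and width, list length, the start window, neighbouring starts and each library left out.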

Additional observations from a re-analysis of the deposited data

How the results depend on the processing

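The class densities of shared regions stayed within 1.5 times their values under all 10 alternatives tried for each class. The 2 regions called only with siChst7 became 4 with 200 bp summit windows (0.962%, beside 1.54% of all regions). With peaks of at least 200 bp there were 4 (1.05%, beside 1.36%). At a −log10 q of at least 10 there was 1 (0.345%, beside 1.00%), and at equal list length 6 (1.71%, beside 1.96%). When a library was left out there were 8 to 20 (2.12 to 5.24%, beside 3.05 to 6.53%). The 10 called only with siControl became 18 with a 50 kb flank (3.35%, beside 2.84%). When a library was left out they became 20 to 33 (5.24 to 8.75%, beside 4.56 to 9.03%). Of these regions, 1 of the 2 and 8 of the 10 remained under all 3 filters (−log10 q of at least 5, equal length, width of at least 200 bp), and 0 of the 2 and 5 of the 10 at a −log10 q of at least 10. The difference in share of peaks, -0.00306 points, turned to 0.00400 at a −log10 q of at least 5, to 0.00151 at equal list length and to 0.00701 without siChst7 replicate 1, with a range of -0.0131 to 0.00701 over left-out libraries. With the replicate block it was -0.00306 (exact sign-flip p = 1). Deviations of same-numbered libraries correlated at r = 0.012 over 55924 regions. This value cannot show whether same-numbered libraries shared a culture, since noise in the calls could also give it. Start peaks numbered 26 with a 2.5 kb window, for which the share of all genes was not computed. A difference of at least 10 points left 25 higher and 15 lower ranks, and leaving out a library, added after seeing the data, gave 94 to 103 higher and 74 to 94 lower, since fewer libraries have to be in order. These counts were out of 253 to 269 shared collagen regions. Over all shared regions, leaving out a library gave 34.0 to 37.5% higher and 33.2 to 34.9% lower. Calls depend on depth, which the lists do not give.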
